A study of Zea mays with 18 samples.

Results

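The 5 genes described here are maize genes of starch synthesis: sh2 (Zm00001d044129), bt2 (Zm00001d050032), wx1 (Zm00001d045462), ae1 (Zm00001d016684) and su1 (Zm00001d049753). They were taken by identifier, with no threshold on their values, from the 45578 genes that the deposited tables list. All 5 were present in each table. Earlier results of these data were known when the genes were chosen. RNA was sequenced from anthers of ZmCCT10 transgenic plants, labelled ZmCCT(+) and called ZmCCT-active in the series title, and of non-transgenic control plants, labelled ZmCCT(-). Anthers came from 3 stages labelled S3-4, S5-6 and S7. Each stage and genotype had 3 libraries, 18 in all. The labels give neither the promoter of the transgene nor the number of transgenic lines nor the age of the plants. They do not say either whether each library had its own plants. The p-values therefore reflect no more than the spread among the libraries sequenced, and that spread may be technical. The series sets transgenic against control anthers at each stage.

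Starch is built in plastids from ADP-glucose. ADP-glucose pyrophosphorylase, an enzyme of large and small subunits, makes this sugar nucleotide and is the main control point of the pathway. Granule-bound starch synthase then extends the linear polymer amylose, branching enzymes add the branches of amylopectin, and isoamylase-type debranching enzymes trim misplaced branches so that amylopectin can crystallise. The maize genes are classical kernel loci known best from endosperm (shrunken2, brittle2, waxy1, amylose extender1 and sugary1). In anthers, starch is held for a time in the wall and later fills the pollen grain, where waxy1 mutants are recognised by iodine staining.

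The deposited tables give identifiers only. The names used here come with the identifiers by which the genes were chosen, and the gene table available for maize matched 0 of 43789 identifiers of this kind. That table lists sh2 on chromosome 3, bt2 on chromosome 4 and wx1 on chromosome 9, the same chromosomes on which the deposited tables place the 3 identifiers. It has entries named ae1 on chromosomes 4 and 5, and none named su1. Of 20 other starch and sucrose genes listed by symbol, 0 could be paired with an identifier, so the rest of the pathway was not analysed here.

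Total counts per library ran from 14846974 to 23652182. The 3 S3-4 ZmCCT(+) libraries stood apart from the rest of the series. Their log2(CPM + 1), where CPM are counts relative to the library total after TMM scaling, correlated across tested genes at Pearson's r of 0.772 to 0.858 with libraries of other groups, whereas libraries of the remaining groups correlated between groups at 0.932 to 0.990 and libraries within a group at 0.996 to 0.997. Precursors of the anther microRNA family zma-MIR2118 had 17 to 60 counts in every library. Those of zma-MIR2275, a family of meiotic anthers, had 0 counts in S3-4 ZmCCT(+) and 10 to 16 in S3-4 ZmCCT(-). They had 65 to 93 counts in ZmCCT(+) and 356 to 500 in ZmCCT(-) at S5-6, and 18 to 39 in ZmCCT(+) and 399 to 489 in ZmCCT(-) at S7, so the genotypes were apart at every stage. Most of the gap at S5-6 and S7 lay in zma-MIR2275c, with group sums of 207 against 1187 and 25 against 1230 counts, ZmCCT(+) first. The precursor zma-MIR2275b had 41 against 45 and 54 against 76. Whether these differences have a part in the results below was not tested. The transgene itself was not analysed here by name.

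In the anther, 3 of the 5 genes were moderately abundant and 2 were scarce. Levels of different genes are compared in TPM, an abundance unit that the authors scaled for gene length. In S7 controls ae1 averaged 25.9 ± 1.12 TPM (SD, n = 3), bt2 19.6 ± 0.430, su1 11.9 ± 1.52, sh2 0.938 ± 0.287 and wx1 0.0757 ± 0.0174 TPM. By TPM the order ae1, bt2, su1, sh2, wx1 held in 4 of the 6 groups. In S3-4 ZmCCT(+) wx1 stood above sh2, at 2.70 against 0.322 TPM, and in S3-4 ZmCCT(-) bt2 stood above ae1, at 22.8 against 14.5 TPM. Most neighbours in this order did not overlap between libraries of a group. The exceptions were ae1 and bt2 in S5-6 ZmCCT(+) and ae1 and su1 in S3-4 ZmCCT(-). By coverage, the deposited mean read depth per base, bt2 stood above ae1 in every group but S3-4 ZmCCT(+). In S7 controls coverage was 41.8, 56.9 and 49.3 for bt2 and 21.8, 28.6 and 23.2 for ae1. In S3-4 ZmCCT(+) it was 13.5, 11.9 and 15.2 for bt2 and 22.1, 21.3 and 24.2 for ae1. The order is thus one of TPM, and why coverage differed was not tested.

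**Figure D1:**
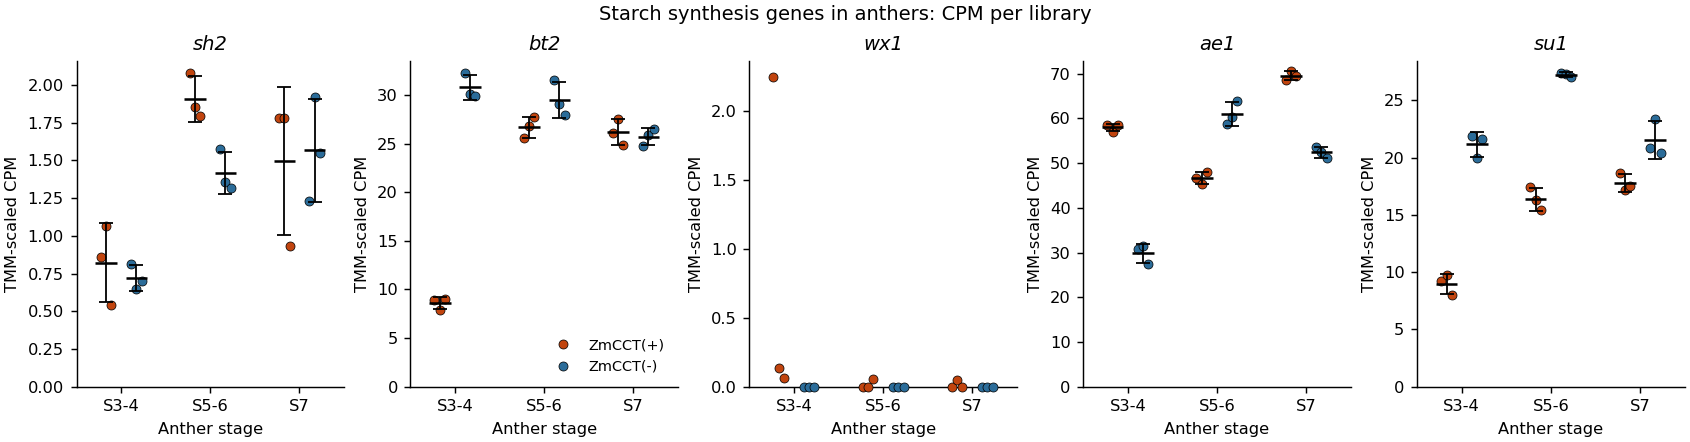
TMM-scaled CPM (vertical axis, linear from 0, a separate scale for each gene) in the 3 libraries of each stage and genotype, with ZmCCT(+) in red and ZmCCT(-) in blue. Horizontal lines are means and bars are SD, except for wx1, where only the libraries are drawn. The S3-4 ZmCCT(+) libraries are lowest for bt2 and su1, at 8.57 and 8.98 CPM on average, and for wx1 1 of them stands at 2.25 CPM.

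Calls below rest on the quasi-likelihood F test of edgeR on raw counts, with Benjamini-Hochberg adjusted p below 0.05 over 24694 tested genes. Of the 5 starch genes 4 had enough counts for this test, and wx1 had not. Fold changes set ZmCCT(+) over ZmCCT(-).

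bt2 encodes the small subunit of ADP-glucose pyrophosphorylase and lies on chromosome 4 at 61315575 to 61321350 (plus strand). Coordinates are as deposited, on a genome build that no source used here gives. bt2 was much lower in transgenic anthers at S3-4 and nearly level between genotypes afterwards. At S3-4 it had 8.86, 7.86 and 8.98 CPM in the ZmCCT(+) libraries, against 32.3, 30.1 and 29.9 CPM in the ZmCCT(-) libraries. No library of one genotype came near the other, and the log2 fold change was -1.84 ± 0.08 SE (3.58-fold lower, edgeR adjusted p = 3.56e-35). In bulk anthers, fewer cells expressing a gene and less RNA per cell cannot be told apart. At S5-6 the ZmCCT(+) libraries had 25.6, 26.8 and 27.7 CPM and the ZmCCT(-) libraries 31.6, 29.1 and 27.9 CPM. The groups lay side by side with a narrow gap, and the log2 fold change of -0.15 ± 0.06 SE was just past the threshold (edgeR adjusted p = 0.0329). That call ended with DESeq2 size factors, where the adjusted p was 0.0544 and the range over all alternatives was 0.0141 to 0.746. It also ended without S5-6 ZmCCT(+) replicate 1 (adjusted p = 0.128), ZmCCT(+) replicate 2 (0.0541) or ZmCCT(-) replicate 1 (0.237), all from edgeR. At S7 the libraries of the genotypes overlapped, at 26.1 ± 1.33 CPM in ZmCCT(+) and 25.7 ± 0.845 CPM in ZmCCT(-) (SD, n = 3 each), with a log2 fold change of 0.02 ± 0.07 SE (edgeR adjusted p = 0.789).

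The large subunit gene sh2 lies on chromosome 3 at 219979958 to 219989574 (minus strand) and did not follow bt2. It was scarce in all libraries, with 9 to 47 counts each, and the spread between replicates was accordingly wide, with a coefficient of variation of 7.97% to 32.7% in CPM. At S3-4 it had 13, 16 and 9 counts in ZmCCT(+), or 0.823 ± 0.264 CPM, and 14, 11 and 13 counts in ZmCCT(-), or 0.722 ± 0.0849 CPM (SD, n = 3 each). The genotypes overlapped, and the log2 fold change of 0.17 ± 0.37 SE did not pass (edgeR adjusted p = 0.674). At S5-6 the 3 ZmCCT(+) libraries, at 1.91 ± 0.152 CPM, all lay above the ZmCCT(-) libraries, at 1.42 ± 0.138 CPM, but the log2 fold change of 0.42 ± 0.26 SE did not pass (edgeR adjusted p = 0.158). At S7 sh2 averaged 1.50 ± 0.489 CPM in ZmCCT(+) and 1.57 ± 0.343 CPM in ZmCCT(-), with a log2 fold change of -0.09 ± 0.28 SE (edgeR adjusted p = 0.815). With standard errors of this size, genotype differences of sh2 well under 2-fold were not detectable at this depth.

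Granule-bound starch synthase I, the amylose-synthesising enzyme, is encoded by wx1 on chromosome 9 at 23107329 to 23111318 (minus strand). Its signal was close to absent from these anthers, with the transgenic S3-4 libraries as the exception, and there the deposited measures differed from each other. The count tables gave wx1 34, 2 and 1 counts in S3-4 ZmCCT(+), 0 in each of the 9 control libraries, and 1 count each in 1 S5-6 and 1 S7 ZmCCT(+) library. Replicate 1 thus held 91.9% of the 37 counts of its group. Against a floor of 3 counts over the S3-4 ZmCCT(-) libraries the S3-4 ZmCCT(+) mean was at least 14.3-fold higher, but without replicate 1 only 3 counts were left, which is the floor itself.

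The deposited coverage, mean read depth per base of the gene, and TPM showed wx1 in all 3 S3-4 ZmCCT(+) libraries. Coverage there was 10.8, 7.19 and 6.90, against 0.307, 0.166 and 0.553 in S3-4 ZmCCT(-), and it did not exceed 0.556 in the other 12 libraries. TPM was 3.63, 2.39 and 2.09 in S3-4 ZmCCT(+), against 0.0959, 0.0531 and 0.163 in S3-4 ZmCCT(-). All 3 transgenic libraries lay above all others of the series by TPM. No test of wx1 by itself is given on these values, because wx1 reached the minimum of 0.5 TPM in 3 libraries, on which the test of TPM was run, only through this group. A permutation test of the ratio of wx1 to ae1, given below, does use these TPM.

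How many counts a gene receives per unit of coverage depends mainly on its length. This quotient was steady for the 4 tested starch genes, from 9.49 to 9.96 over the 18 libraries for bt2, 39.2 to 40.5 for ae1, 17.9 to 19.1 for su1 and 21.0 to 29.2 for sh2. For wx1 it was 3.14, 0.278 and 0.145 in the 3 S3-4 ZmCCT(+) libraries, so the quotient of replicate 1 was more than 10-fold above those of the other two. Among genes with a coverage of at least 5, the share with a quotient as low as that of wx1 was 19.6%, 2.35% and 1.82% in those libraries. These genes were not matched to wx1 for length, so the shares cannot show whether its counts fit its coverage. No other listed gene overlaps wx1 in position. Why reads that entered its coverage did not enter its counts was not tested, and the level of wx1 in S3-4 ZmCCT(+) is uncertain for that reason.

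**Figure D2:**
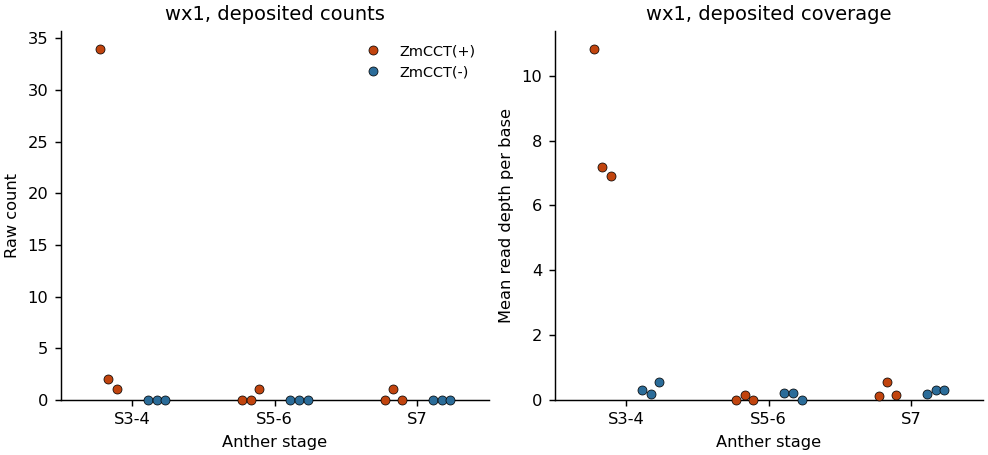
Raw counts (left) and mean read depth per base (right) of wx1 in each library, ZmCCT(+) in red and ZmCCT(-) in blue. By count 1 of the S3-4 ZmCCT(+) libraries stands out, at 34, while by read depth all 3 do, at 6.90 to 10.8.

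ae1 encodes starch branching enzyme IIb, which adds the branches of amylopectin, and lies on chromosome 5 at 172412995 to 172430415 (minus strand). Its genotype difference changed sign along the stages. At S3-4 it had 58.5, 57.0 and 58.5 CPM in ZmCCT(+), against 30.7, 31.4 and 27.5 CPM in ZmCCT(-). Every transgenic library was far above every control, with a log2 fold change of 0.96 ± 0.05 SE (1.95-fold, edgeR adjusted p = 1.07e-29). At S5-6 it stood the other way, at 46.7, 45.4 and 48.0 CPM in ZmCCT(+) and 58.7, 60.3 and 63.9 CPM in ZmCCT(-), again without overlap. The log2 fold change was -0.38 ± 0.05 SE (edgeR adjusted p = 7.26e-12). At S7 ZmCCT(+) was higher once more, with 68.5, 70.6 and 69.6 CPM in ZmCCT(+) against 53.6, 52.6 and 51.2 CPM in ZmCCT(-), and the log2 fold change was 0.41 ± 0.05 SE (edgeR adjusted p = 9.17e-13). With a coefficient of variation of 20% between replicates assumed in place of the estimated 3.20%, in edgeR's likelihood ratio test, the differences at S5-6 and S7 did not pass (edgeR adjusted p = 0.271 and 0.316), while that at S3-4 did.

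In TPM the replicates of ae1 were less alike than in counts. S3-4 ZmCCT(-) replicate 2 had 17.3 TPM against 13.9 and 12.5 TPM in replicates 1 and 3, although the 3 libraries had 528, 532 and 508 counts. Coverage of ae1 in these libraries was 13.4, 13.4 and 12.9. The coefficient of variation of ae1 within a group reached 16.9% in TPM and 7.03% in CPM.

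su1 encodes an isoamylase-type debranching enzyme and lies on chromosome 4 at 43110569 to 43119167 (plus strand). It was lower in transgenic anthers at each stage, by less as the stages advanced. At S3-4 it had 9.19, 9.73 and 8.01 CPM in ZmCCT(+), against 21.9, 19.9 and 21.6 CPM in ZmCCT(-), a log2 fold change of -1.24 ± 0.09 SE (2.36-fold lower, edgeR adjusted p = 3.66e-22). At S5-6 it had 17.4, 16.3 and 15.4 CPM in ZmCCT(+), against 27.4, 27.3 and 27.0 CPM in ZmCCT(-), a log2 fold change of -0.73 ± 0.07 SE (1.66-fold lower, edgeR adjusted p = 5.48e-15). The genotypes were fully apart at both stages. At S7 the gap narrowed to 18.7, 17.2 and 17.5 CPM in ZmCCT(+) against 20.8, 23.4 and 20.4 CPM in ZmCCT(-), still without overlap (log2 fold change -0.28 ± 0.08 SE, edgeR adjusted p = 0.00110). In TPM the S7 difference did not pass, at -0.10 on the log2(TPM + 1) scale (limma adjusted p = 0.456), a setting that moved the median of all genes by 0.12 in this comparison. With the assumed spread of 20% the S7 adjusted p was 0.582, and over all alternatives it ranged upward from 6.56e-04.

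**Figure D3:**
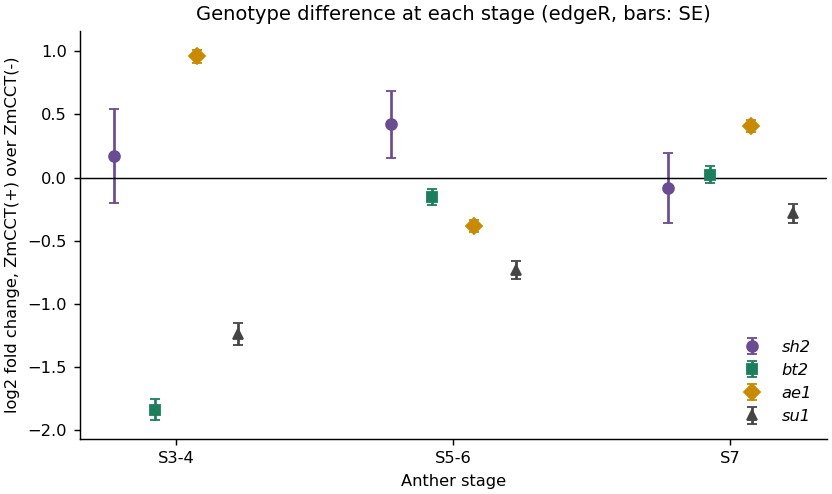
Log2 fold change of ZmCCT(+) over ZmCCT(-) at each anther stage for the 4 starch genes with enough counts, with SE bars from edgeR. bt2 and su1 lie furthest below 0 at S3-4, at -1.84 and -1.24, ae1 lies above, below and above 0 along the stages, and the bars of sh2 are the widest.

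These differences have to be read against transcriptomes in which most genes differed. At S3-4 3 of the 4 tested starch genes passed, bt2 and su1 lower and ae1 higher, while 81.3% of all tested genes passed. With a 2-fold minimum bt2 and su1 were left, and 40.2% of all genes met that rule. The median log2 fold change of the 4 starch genes was -0.53 and that of all tested genes -0.01. At S5-6 3 of 4 passed, bt2, ae1 and su1, all lower, against 63.1% of all genes. None of the 4 reached 2-fold, as 12.4% of all genes did. At S7 2 of 4 passed, ae1 higher and su1 lower, against 54.5% of all genes, and none reached 2-fold, as 8.94% did. The medians of the starch genes and of all tested genes were -0.27 and -0.02 at S5-6 and -0.03 and -0.04 at S7. The number of starch genes called was thus near the background share at each stage. How many of all tested genes had no overlap between genotypes was not counted. A lack of overlap therefore cannot be called particular to the starch genes. With the assumed spread of 20% su1 alone of the 4 passed at S5-6 and none at S7, against 22.2% and 13.3% of all genes.

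Along the stages in transgenic anthers, bt2, su1 and sh2 rose between S3-4 and S5-6, and ae1 fell and then rose. bt2 averaged 8.57, 26.7 and 26.1 CPM at S3-4, S5-6 and S7 in ZmCCT(+). The first step was a 3.11-fold rise (log2 1.64 ± 0.08 SE, edgeR adjusted p = 6.76e-32), and the second step did not pass (log2 -0.03 ± 0.07 SE, adjusted p = 0.736). su1 averaged 8.98, 16.4 and 17.8 CPM. Its first step was a 1.83-fold rise, with an edgeR adjusted p of 1.97e-14, and its second step did not pass either (log2 0.12 ± 0.08 SE, adjusted p = 0.197). sh2 rose 2.33-fold in the first step, a log2 change of 1.22 ± 0.31 SE with an edgeR adjusted p of 1.95e-04, with 0.823, 1.91 and 1.50 CPM at the 3 stages. Its second step had a log2 change of -0.35 ± 0.26 SE (adjusted p = 0.243).

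ae1 took another course in ZmCCT(+), averaging 58.0, 46.7 and 69.6 CPM at S3-4, S5-6 and S7. The fall was 1.24-fold with an edgeR adjusted p of 5.55e-09, and the rise was 1.49-fold with an adjusted p of 6.11e-20. By limma-trend on log2(TPM + 1), which moved the median of all genes in this step by 0.22, the fall did not pass (adjusted p = 0.108), and with the assumed spread of 20% neither step did (edgeR adjusted p = 0.239 and 0.0621). In the first step 4 of the 4 tested starch genes passed in ZmCCT(+), against 85.9% of all genes, and sh2 and bt2 changed at least 2-fold, as 49.2% of all genes did. In the second step ae1 alone of the 4 passed, against 63.6% of all genes, and none reached 2-fold, against 13.8% of all genes. With the assumed spread none of the 4 passed in the second step, against 24.1% of all genes.

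In control anthers ae1 rose 2.04-fold and sh2 1.96-fold between S3-4 and S5-6, and bt2 did not pass. ae1 averaged 29.9, 61.0 and 52.5 CPM at S3-4, S5-6 and S7, a 2.04-fold rise (log2 1.03 ± 0.05 SE, edgeR adjusted p = 8.68e-32) followed by a 1.16-fold fall (adjusted p = 6.40e-05). sh2 rose 1.96-fold in the first step (log2 0.97 ± 0.32 SE, edgeR adjusted p = 0.00743), from few counts, with 0.722, 1.42 and 1.57 CPM at the 3 stages. su1 rose 1.29-fold and then fell 1.26-fold (edgeR adjusted p = 9.85e-06 and 6.19e-05), though with the assumed spread of 20% the rise had an adjusted p of 0.382. bt2 averaged 30.8, 29.5 and 25.7 CPM, and its first step did not pass (log2 -0.05 ± 0.06 SE, edgeR adjusted p = 0.488). In the second it fell 1.15-fold (adjusted p = 0.00838), though not without S5-6 ZmCCT(-) replicate 1 (adjusted p = 0.0965).

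From S3-4 to S5-6 in controls 3 of the 4 starch genes passed, against 56.3% of all genes, and ae1 changed at least 2-fold, as 11.0% of all genes did. From S5-6 to S7 3 of 4 passed, bt2, ae1 and su1, against 42.4% of all genes. None reached 2-fold, which 2.58% of all genes did. With the assumed spread of 20% none of those 3 passed in the second step (edgeR adjusted p from 0.688 to 0.883). That setting left 2.26% of all genes passing.

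The genotype difference itself varied with stage for bt2, ae1 and su1. In edgeR's interaction test the adjusted p was 4.87e-29 for bt2, 1.45e-30 for ae1 and 1.29e-10 for su1, whereas sh2 did not pass (0.437). That is 3 of 4, against 86.6% of all genes. Without the 6 S3-4 libraries, an alternative chosen after seeing the data, ae1 and su1 still passed (edgeR adjusted p = 1.23e-23 and 3.64e-05) and bt2 did not (0.0505). That is 2 of 4, against 62.8% of all genes tested in those libraries.

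Ratios between members within a library do not depend on how libraries are scaled against each other. sh2 and bt2 encode a large and a small subunit, and any other genes for these subunits were not analysed here. The ratio of sh2 to bt2 in TPM was 0.0569 ± 0.0273 in S3-4 ZmCCT(+) and 0.0167 ± 0.00267 in S3-4 ZmCCT(-) (SD, n = 3 each). It was 0.0563 ± 0.0171 in ZmCCT(+) and 0.0340 ± 0.00291 in ZmCCT(-) at S5-6, and 0.0391 ± 0.0141 in ZmCCT(+) and 0.0479 ± 0.0147 in ZmCCT(-) at S7. The transgenic libraries lay above the controls at S3-4 and S5-6 and overlapped them at S7. bt2 thus exceeded sh2 by over 10-fold in TPM in every library.

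su1 and ae1 encode a debranching and a branching enzyme, and any other genes for such enzymes were not analysed here. The ratio of su1 to ae1 in TPM was 0.167 ± 0.0245 in S3-4 ZmCCT(+) and 0.813 ± 0.195 in S3-4 ZmCCT(-). At S5-6 it was 0.445 ± 0.0529 in ZmCCT(+) and 0.450 ± 0.0301 in ZmCCT(-), where the genotypes overlapped in TPM. By counts the S5-6 ratio was not level, as the edgeR log2 fold change was -0.73 for su1 and -0.38 for ae1. Coverage followed the counts, with 17.9 to 19.1 counts per unit of coverage for su1 and 39.2 to 40.5 for ae1 in all libraries. Why TPM differed from counts and coverage here was not tested. At S7 it was 0.335 ± 0.0489 in ZmCCT(+) and 0.458 ± 0.0542 in ZmCCT(-), with all 3 transgenic libraries below all 3 controls. The log2 ratio of TPM differed between genotypes by -2.26 at S3-4, -0.02 at S5-6 and -0.45 at S7.

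An exact permutation test, two-sided, with genotypes exchanged within stages over 8000 arrangements, asked whether a ratio differed between genotypes at any stage. Its adjusted p over 3 ratios was 0.027 for sh2 to bt2 and 0.027 for su1 to ae1. For wx1 to ae1 it was 0.07, on the linear ratio because wx1 is listed at 0 TPM in some libraries. Of its summed absolute difference of 0.0942, S3-4 gave 0.0932. Within a single stage, 3 libraries against 3 cannot give an exact p below 0.1. For wx1 to ae1 the differences of -6.7e-04 at S5-6 and -3.2e-04 at S7 thus decide whether p is lower. There wx1 was close to 0 TPM, so no conclusion is drawn from the test of this ratio. With S3-4 ZmCCT(-) replicate 1, 2 or 3 or S7 ZmCCT(-) replicate 2 left out, each with fewer arrangements, neither of the first 2 ratios passed in the exact permutation test (adjusted p from 0.054 to 0.066).

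**Figure D4:**
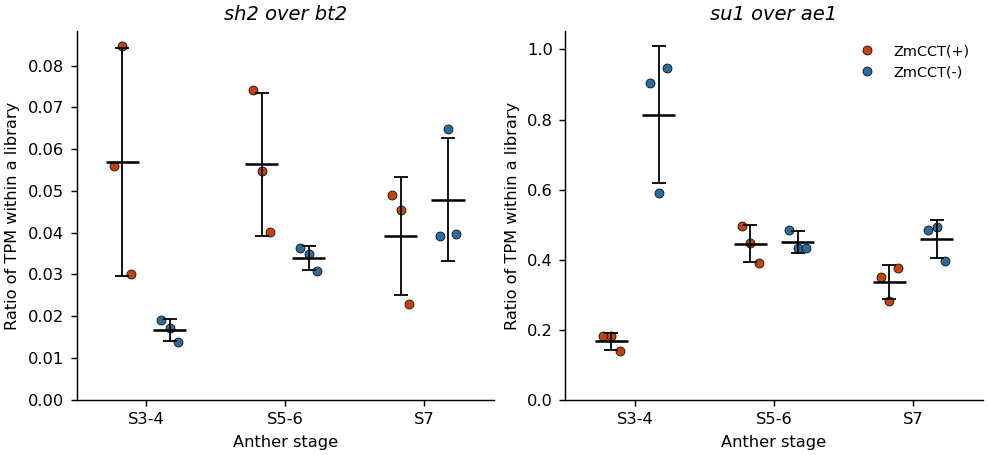
Ratio of TPM within each library for sh2 over bt2 (left) and su1 over ae1 (right), by anther stage, ZmCCT(+) in red and ZmCCT(-) in blue, with means (lines) and SD (bars). At S3-4 the sh2 to bt2 ratio is higher in ZmCCT(+), 0.0569 against 0.0167, and the su1 to ae1 ratio is lower, 0.167 against 0.813.

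Genes next to the starch genes were called in both directions, as were genes at large, of which 81.3% passed at S3-4, 63.1% at S5-6 and 54.5% at S7. Of the 50 tested genes next to them, 5 on either side of each, 21 were higher and 19 lower in ZmCCT(+) at S3-4, 17 higher and 12 lower at S5-6, and 11 higher and 10 lower at S7 (edgeR adjusted p below 0.05). Over the whole table the share called higher was 40.4% and that called lower 40.9% at S3-4, and they were 29.8% and 33.4% at S5-6 and 24.1% and 30.4% at S7. Around bt2, whose own log2 fold change at S3-4 was -1.84, the median of the 10 neighbours was 0.23. Around su1, at -1.24 itself, it was 0.00, and around ae1, at 0.96, it was 0.44.

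For each gene the closest profiles were sought among 22091 other tested genes with a mean of at least 1 CPM, by Pearson's r of log2(CPM + 1) over the 18 libraries. For bt2 they were Zm00001d038855 (r = 0.995) and Zm00001d045104 (r = 0.995), and for su1 Zm00001d043410 (r = 0.975) and Zm00001d047757 (r = 0.974). For ae1 they were Zm00001d051161 (r = 0.925) and Zm00001d022518 (r = 0.906), and for sh2 Zm00001d032837 (r = 0.910) and Zm00001d018614 (r = 0.908). The group that stands apart, S3-4 ZmCCT(+), carries much of the likeness for bt2, where r without those libraries was 0.830 and 0.812, and less for su1, at 0.929 and 0.916. For wx1 the closest were Zm00001d016478 (r = 0.816) and Zm00001d044343 (r = 0.792), and without those libraries r was 0.229 and 0.493. Among the starch genes themselves bt2 and su1 had the highest r over the 18 libraries, at 0.892, whereas over the 15 outside S3-4 ZmCCT(+) they had 0.454 and sh2 and ae1 had the highest, at 0.578. These values describe libraries that share groups and carry no test.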

How the data were processed

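RNA of anthers was sequenced in 18 libraries. The authors deposited raw gene counts in 3 tables, 1 for each stage. Each library also has a table of gene abundances in StringTie's format, with TPM computed by the authors. Its coverage column, per the file headers, holds the average depth of reads over the gene. Bowtie2, StringTie and DESeq2 are named in the submitters' processing notes. Versions, genome build, strand counting and the handling of reads with several matches were not stated in any source used here. Columns of the count tables were assigned by stage, genotype and number in their names. As a check, 18 of 18 matched the coverage of their own sample best (r from 0.965 to 0.991).

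Genes were kept by filterByExpr of edgeR 4.0.16 (R 4.3.3; minimum count 10, minimum total 15), 24694 in all. Counts were scaled by TMM and fitted in 1 quasi-likelihood model of 6 groups. Beforehand the fit was tried on simulated counts with genotype changes planted at S7 only. It was not tried on differences as broad as those at S3-4. P-values were adjusted over all tested genes. SE was obtained by dividing the size of the log2 fold change by the root of F. Intervals and floors of 3 counts cover counting error only. TPM was tested with limma 3.58.1 on genes with at least 0.5 TPM in 3 libraries, and DESeq2 1.42.0 was an alternative. The gene wx1 entered the limma set only through S3-4 ZmCCT(+) and is not counted among the starch genes passing there. The 5 genes, the lists and the tests were chosen with earlier results of these data known. Named are the 5 genes and, for each, the 2 genes with the highest correlation. Replicates within groups differed beyond counting noise (chi-square per degree of freedom from 1.56 to 2.96). For the ratio of wx1 to ae1 the planned log2 scale was replaced by the linear one.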

Additional observations from a re-analysis of the deposited data

Results flagged for a closer look

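For 3 starch genes the difference between genotypes varied with stage by edgeR's interaction test. The log2 fold changes of ZmCCT(+) over ZmCCT(-) at S3-4, S5-6 and S7 were -1.84, -0.15 and 0.02 for bt2 (edgeR adjusted p = 4.87e-29), 0.96, -0.38 and 0.41 for ae1 (adjusted p = 1.45e-30) and -1.24, -0.73 and -0.28 for su1 (adjusted p = 1.29e-10). Of all tested genes 86.6% passed this test.

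The coverage of wx1, which enters none of the count tests, averaged 8.31 ± 2.19 in S3-4 ZmCCT(+) and 0.342 ± 0.195 in S3-4 ZmCCT(-) (SD, n = 3 each), and at most 0.279 in the other groups. The cause of its discord with the counts was not tested.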

How the results depend on the processing

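Over 27 alternatives (other size factors, the filter on counts dropped or made stricter, the replicate number as a block, an assumed spread of 20%, a fit of only the libraries compared, DESeq2, limma on TPM with 2 pseudocounts, and each library left out), the S3-4 differences of bt2, ae1 and su1 kept direction and call, with log2 fold changes from -1.96 to -1.79, 0.84 to 0.99 and -1.36 to -1.16. The stricter filter removed sh2 and gave it no value. Of 884 values of single genes, which also count the 2-fold minimum and the interaction without the S3-4 libraries, 837 kept direction and call, 37 lost the call and 10 turned direction, none of the 10 called in the first place. Those 10 were sh2 between genotypes at S3-4 (-0.068 and -0.23 with TPM plus 1 and plus 0.1, and -0.056 to 0.41 with libraries left out, lowest without S3-4 ZmCCT(+) replicate 2) and at S7 (-0.25 to 0.17 with libraries left out, above 0 without ZmCCT(+) replicate 3 or, at 0.10, ZmCCT(-) replicate 2), bt2 at S7 (-0.012 to 0.064, lowest without ZmCCT(+) replicate 2), bt2 from S5-6 to S7 in ZmCCT(+) (-0.064 to 0.012, highest without S7 replicate 3), bt2 from S3-4 to S5-6 in ZmCCT(-) (0.059 and 0.061 with TPM plus 1 and plus 0.1) and sh2 from S5-6 to S7 in ZmCCT(-) (-0.033 to 0.28, lowest without S7 replicate 2).

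With the assumed spread the starch genes passing were 1 at S5-6 and 0 at S7 between genotypes, and 0 from S5-6 to S7 in ZmCCT(+) and in ZmCCT(-). Of 24694 genes 5471 (S5-6), 3280 (S7), 5954 (S5-6 to S7, ZmCCT(+)), 4022 (S3-4 to S5-6, ZmCCT(-)) and 559 (S5-6 to S7, ZmCCT(-)) passed. In the interaction test 13646 did. With a 2-fold minimum 0 starch genes passed at S5-6 and 0 at S7 between genotypes (12.4% and 8.94% of all genes). In the steps of ZmCCT(+) 2 and 0 passed (49.2% and 13.8%), and 1 and 0 in those of ZmCCT(-) (11.0% and 2.58%). With limma on TPM 1 of 4 starch genes, ae1, passed at S7 with either pseudocount, against 52.0% and 50.2% of all genes with TPM plus 1 and plus 0.1. The first 2 settings are stricter by construction, and no other cause of the losses was tested.

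With libraries left out one at a time the starch genes passing between genotypes stayed at 3 at S3-4, 2 to 3 at S5-6 and 2 at S7, against 78.3% to 80.8%, 58.4% to 63.1% and 49.5% to 54.5% of all genes. The summed absolute genotype difference of the ratios ran from 2.32 to 3.07 for sh2 to bt2, 2.61 to 2.96 for su1 to ae1 (both log2) and 0.0796 to 0.106 for wx1 to ae1 (linear). No conclusion is drawn from the last. It passed the exact permutation test without S7 ZmCCT(+) replicate 2 (adjusted p = 0.021). So it did without S5-6 ZmCCT(+) replicate 2 (0.046) or S5-6 ZmCCT(-) replicate 3 (0.04), and no other (highest 0.094).

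Replicate numbers did not pair the libraries (correlation of same-numbered deviations from -0.0619 to 0.0302), and the replicate block changed no call, with 3, 3 and 2 starch genes and 20040, 15574 and 13427 of all genes passing between genotypes at the 3 stages and an edgeR adjusted p of 0.0311 for bt2 at S5-6. The low counts of sh2 leave wide errors, the discord between counts and coverage leaves the level of wx1 uncertain, and 3 libraries a group limit every ratio.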
